A study of Ovis aries with 27 samples.

Results

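The subject is a group of 6 nuclear genes that encode subunits of the mitochondrial respiratory chain and of ATP synthase, measured in the heart septum of fetal sheep. They are NDUFA12, COX5A, ATP5MC1, ATP5MC2, ATP5PD and ATP5PO, found on the array by gene name, RefSeq accession or probe description, including the older symbols ATP5G1, ATP5G2, ATP5H and ATP5O. The array names 795 genes with a tested probe, these 6 among them. The genes have 9 probes among the 15008 probes of the array besides controls. ATP5MC1 has 4 probes and each of the other genes has 1. All 9 probes were well above background on all 27 arrays, so all 9 passed the filter and are among the 12778 probes tested.

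Each array measured the septum, the wall between the ventricles, of 1 fetus with Cy3-labelled cRNA. Control fetuses of the younger cohort (n = 6) came from ewes infused with vehicle and were taken at 129 to 131 d of gestation, labelled 130 d. Cortisol fetuses of that cohort (n = 6) came from ewes infused with cortisol at 1 mg/kg per d for about 10 d. The older control fetuses (n = 8, from 7 ewes, with 1 twin pair that the labels do not identify) and older cortisol fetuses (n = 7, same dose, about 25 d) were taken at 139 to 144 d, labelled 140 d. Each age was a cohort of its own, infused for its own time; differences between the ages may belong to age, cohort or infusion time, which cannot be told apart. One of the labels starts the infusion at about 115 d for every ewe, where another starts it at about 120 d for the younger cohort. Breed and genotype are not given in the sources used here.

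The respiratory chain passes electrons from nutrients to oxygen and pumps protons out of the mitochondrial matrix. ATP synthase lets them flow back through a rotating membrane ring and makes ATP from that flow. The heart depends on this supply for contraction, and its muscle cells gain mitochondria as birth approaches. NDUFA12 is an accessory subunit of complex I, the entry point for electrons from NADH, and COX5A is a subunit of complex IV, cytochrome c oxidase, which hands electrons to oxygen. ATP5MC1 and ATP5MC2 both encode the ring subunit c and differ in the leader peptide that directs the protein into mitochondria. ATP5PD encodes subunit d and ATP5PO the subunit known as OSCP, both of the stalk that holds the catalytic head still while the ring turns.

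What a spot reports depends on the 60 bases of its probe, so those of several probes are given as the scanner files list them, 5′ to 3′. The ATP5MC1 gene has a pair of probes to its mRNA, and the first printed holds the end of the coding sequence, with the stop codon in capitals after an open stretch of 12 codons. The last 30 bases of the second hold the polyadenylation signal ATTAAA, in capitals. The ATP5MC2 and ATP5PO probes end likewise on the signal AATAAA. The other ATP5MC1 probe shown was designed on an expressed sequence tag, and its partner A_70_P016887 shares a run of 59 bases with it. It is shown because its values differ from those of the mRNA probes. The COX5A probe, not shown, and the ATP5PD probe were designed on expressed sequence tags too.
ATP5MC1 A_70_P030367: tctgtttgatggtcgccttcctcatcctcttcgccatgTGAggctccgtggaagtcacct
ATP5MC1 A_70_P030366, last 30 bases: taccATTAAAcacaatgtttctctaaaaaa
ATP5MC1 A_70_P016886: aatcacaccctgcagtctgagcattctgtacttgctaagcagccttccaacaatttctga
ATP5MC2 A_70_P051026, last 30 bases: cagaaggaagacaAATAAAtactgtattaa
ATP5PO A_70_P013451, last 30 bases: aacttggagcgacAATAAAatgcttcctga
NDUFA12 A_70_P066156: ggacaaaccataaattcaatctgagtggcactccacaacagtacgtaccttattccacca

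The ATP5PD probe needs a separate reading. Its listed strand and the reverse complement of it are both given, the latter in capitals from its ATG.
ATP5PD A_70_P001871, as listed: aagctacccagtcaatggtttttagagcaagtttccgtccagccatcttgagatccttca
ATP5PD A_70_P001871, reverse complement: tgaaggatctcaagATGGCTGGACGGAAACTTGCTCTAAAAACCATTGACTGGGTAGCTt
Both strands hold an ATG at base 15 followed by an open stretch of 15 codons to the end of the probe, so open frames alone do not tell them apart. From background knowledge of the protein, the capitals spell the start of ATP5PD, which makes the listed strand the antisense one. The labelling kit makes antisense cRNA, which pairs with sense probes. Whether this spot reports ATP5PD mRNA or RNA of the opposite strand was not tested, and its values are given under the name the array design uses. No probe of another gene among the 15008 shared a run of 20 bases with any of the 9 probes on either strand. The files name no genome build for the probes, so no positions are given.

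Levels are given as log2 of the processed spot intensity minus the log2 of the array's 75th percentile, so that 0 is the brightness of the probe at that percentile. A difference of 1 between groups is a doubling. Probes differ in how well they bind, so levels of different probes are not amounts to be compared. Tests are from limma, with the 4 groups in 1 fit and p adjusted by Benjamini-Hochberg over the 12778 tested probes at a threshold of 0.05. The share of spots well above background was 77% to 87% per array, and 0 spots were flagged as saturated. Arrays of the younger fetuses were brighter. Their 75th percentile of intensity was 1160 ± 101 (SD, n = 6) for vehicle and 1093 ± 77 (SD, n = 6) for cortisol, against 838 ± 59.3 (SD, n = 8) and 884 ± 149 (SD, n = 7) at 140 d. The dimmest array of the older cortisol group, its replicate 4, had a 75th percentile of 601.6, against 817.9 to 1079 on the other 6 arrays of the group. Its mean correlation with them was 0.955, where theirs within the group were 0.975 to 0.98. On 7 of the 9 subunit probes it was the lowest array of its group, and the main results that involve this group are also given without it.

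In control fetuses, 4 of the 6 genes were higher at 140 d than at 130 d by the brightest probe of each gene, and none was lower. They were NDUFA12 of complex I, ATP5MC1 of the ring, and ATP5PD and ATP5PO of the stalk, with differences of 0.54 to 0.71 on the log2 scale (1.46 to 1.63-fold). ATP5PD is counted under the array's name for its probe. That probe's listed strand reads as antisense, and which RNA it reports was not tested. By probe, 5 of 9 passed the threshold upward, beside 9.77% of all tested probes. The same 5 had every older control above every younger control, beside 3.52% of all tested probes. The median difference of the 9 probes was 0.54 and that of all tested probes -0.01. COX5A and ATP5MC2 had positive differences that did not pass.

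**Figure D1:**
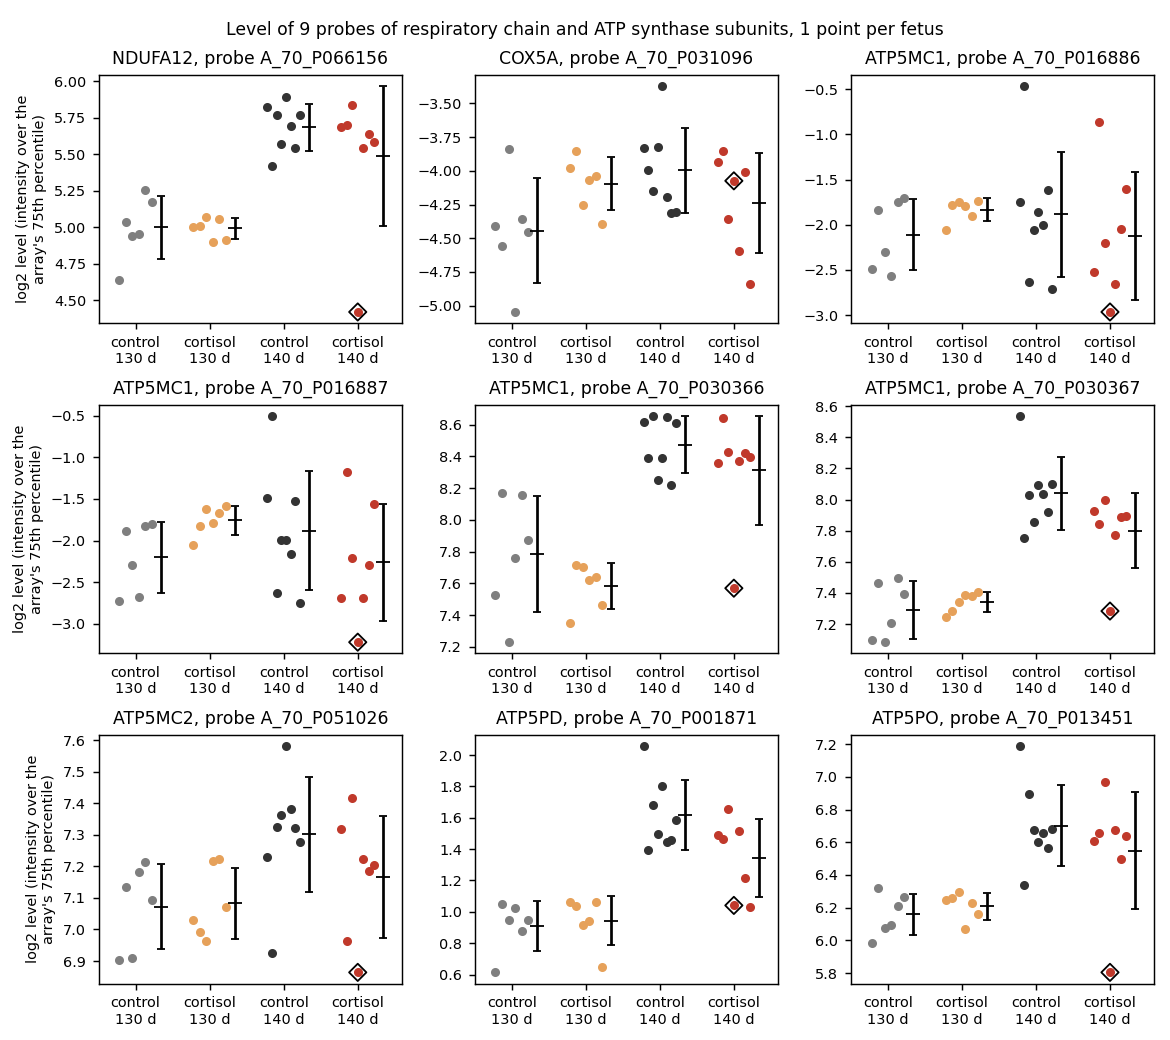
Level of each of the 9 probes (y axis, log2 of intensity over the array's 75th percentile) by group (x axis), 1 point per fetus, with the mean and SD beside the points. The open diamond marks replicate 4 of the older cortisol group; for NDUFA12, both ATP5MC1 mRNA probes, ATP5PD and ATP5PO the points of the older controls lie above all points of the younger controls.

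NDUFA12 ran from 4.64 to 5.25 in the younger controls, with a median of 5.00, and from 5.42 to 5.89 in the older controls, with a median of 5.73. On the scaled levels, no older control was as low as any younger one. The difference was 0.69 (SE 0.15, 95% interval 0.38 to 1.00, adjusted p = 0.0031 by limma). COX5A had the dimmest member probe, with processed intensities of 34.34 to 89.14 over all arrays. That probe was designed on an expressed sequence tag, and which RNA it reports was not tested. COX5A ran from -5.05 to -3.84 in the younger controls (median -4.43) and from -4.31 to -3.37 in the older ones (median -4.07), and the groups overlapped. Its difference was 0.45 (SE 0.17, 95% interval 0.09 to 0.80, adjusted p = 0.0704 by limma), with all 8 older controls above the mean of the younger ones. It depended on the scaling and on the fit: a shift to a common median (0.54, adjusted p = 0.0247) and slide as a fixed block (0.65, adjusted p = 0.00987) both brought it past the threshold, and with no scaling it was -0.02. Leaving out control 130 d replicate 3 did so too (adjusted p = 0.0307).

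ATP5MC1 rose by both of its mRNA probes. The coding-end probe A_70_P030367 ran from 7.08 to 7.50 in the younger controls (median 7.30) and from 7.75 to 8.54 in the older controls (median 8.03). The difference was 0.75 (SE 0.11, 95% interval 0.52 to 0.98, adjusted p = 0.000171 by limma), a 1.68-fold change and the one with the smallest p of the 9 probes. The other mRNA probe, A_70_P030366, ran from 7.23 to 8.17 (median 7.81) and from 8.22 to 8.65 (median 8.50), and differed by 0.69 (SE 0.15, adjusted p = 0.00239). Both probes separated the ages in controls on the scaled levels.

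The overlapping pair of ATP5MC1 tag probes did not follow them. A_70_P016886 ran from -2.57 to -1.71 in the younger controls (median -2.07) and from -2.71 to -0.46 in the older controls (median -1.93), and the older controls spread over both sides of the younger ones. Its difference was 0.22 (SE 0.29, 95% interval -0.37 to 0.82, adjusted p = 0.628), and that of A_70_P016887 was 0.32 (SE 0.30, adjusted p = 0.48). After subtraction of group means, the pair correlated with each other over the 27 arrays at r = 0.98, which their shared bases allow. With the mRNA probes of the same gene they correlated at 0.18 to 0.34. These probes are named for ATP5MC1 through the files' gene identifier, and whether they measure the same transcript was not tested.

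ATP5MC2, the other ring gene, ran from 6.90 to 7.21 in the younger controls (median 7.11) and from 6.93 to 7.58 in the older controls (median 7.32). The groups overlapped, with 7 of 8 older controls above the mean of the younger ones. The difference was 0.23 (SE 0.10, 95% interval 0.03 to 0.43, adjusted p = 0.0897), and it passed with the arrays shifted to a common median (0.32, adjusted p = 0.0278) or without control 140 d replicate 2 (adjusted p = 0.0315). With no scaling ATP5MC2 was -0.24 (adjusted p = 0.139), the opposite sign.

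Of the stalk genes, ATP5PD is given by its probe whose listed strand reads as antisense. It ran from 0.61 to 1.05 in the younger controls (median 0.95) and from 1.40 to 2.06 in the older controls (median 1.54). The difference was 0.71 (SE 0.11, 95% interval 0.47 to 0.94, adjusted p = 0.000293). ATP5PO ran from 5.98 to 6.32 (median 6.15) and from 6.34 to 7.19 (median 6.67), with a difference of 0.54 (SE 0.13, 95% interval 0.27 to 0.81, adjusted p = 0.00595). Neither gene had an older control at the scaled level of a younger one. For ATP5PO the gap was narrow, 6.32 against 6.34.

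**Figure D2:**
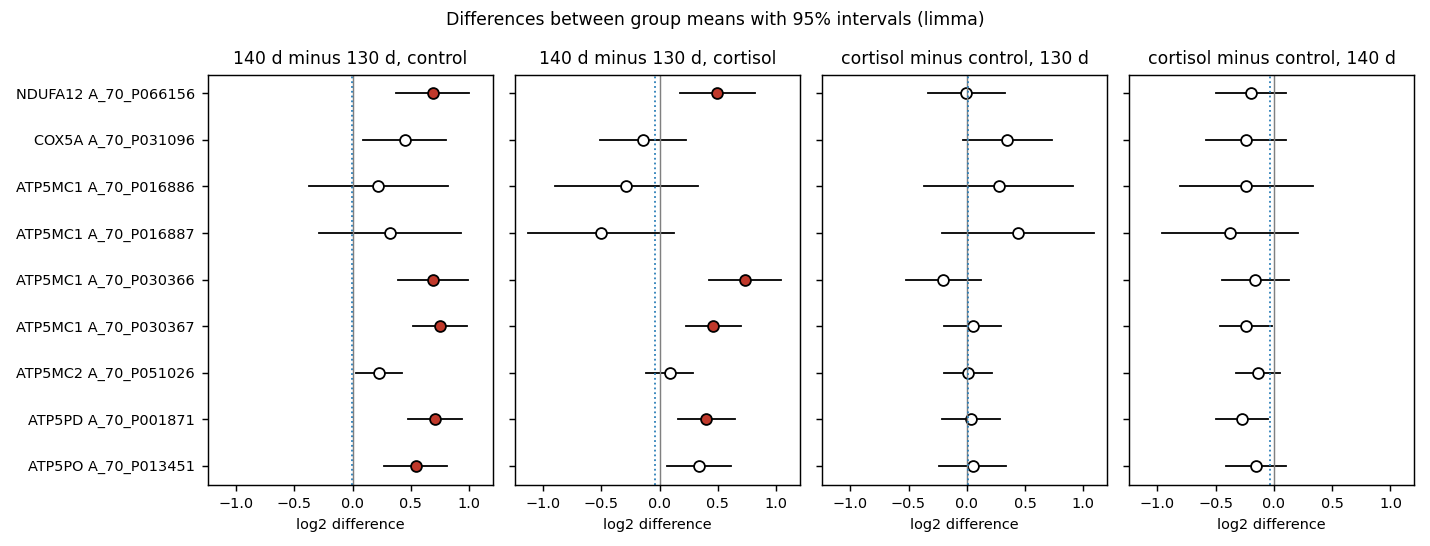
Log2 difference between group means (x axis) for the 9 probes (y axis) in 4 comparisons, with 95% intervals from limma; filled points passed an adjusted p of 0.05 and the dotted line is the median of all tested probes. Filled points occur only in the comparisons of the ages, 5 in controls and 4 with cortisol.

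The arrays were spread over 5 slides, of which 3 held arrays of both control ages. On each of those 3 slides the older controls were higher for 7 of the 9 probes, all but the tag pair. The share of all tested probes higher on each slide was not computed. Slide 4 held 1 older control, so its difference rests on 1 array at that age. NDUFA12 differed by 0.68 to 0.78 and ATP5PD by 0.61 to 0.90 over the slides, and the coding-end probe of ATP5MC1 by 0.65 to 0.87. ATP5PO differed by 0.37 to 0.70, COX5A by 0.46 to 1.03 and ATP5MC2 by 0.06 to 0.43. With 8 arrays or fewer on a slide no member probe passed the threshold within one, where at most 5 of all tested probes did so.

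How the arrays are brought to a common scale matters here, because the older arrays were dimmer by about as much as these genes differed. With no scaling at all, the median of all tested probes was -0.47 in the control age comparison, that of the 9 probes was 0.08, and 0 of 9 passed. In either direction 56.9% of all tested probes passed then, against 19.1% with scaling to the 75th percentile. The members' median stood 0.55 above that of all probes both with and without this scaling. A shift of each whole array moves both medians alike, so that equality was fixed in advance. After quantile normalization, which is no such shift, the gap was 0.37. Under quantile normalization 4 of 9 passed, COX5A among them, beside 18.8% of all tested probes in either direction. ATP5PO (0.30, adjusted p = 0.0925) and the ATP5MC1 probe A_70_P030366 (0.34, adjusted p = 0.0895) did not pass. After normexp background correction 4 of 9 passed, beside 4.19% of all tested probes in either direction. ATP5PO did not pass (0.48, adjusted p = 0.0932), and the median of all tested probes was 0.15. Of all probes called in this comparison, 51.1% were higher at 140 d with the 75th percentile, 70.6% with a common median and 1.1% with no scaling. The statement that the 5 probes rose is therefore relative to the other probes of the array. So is their separation of the ages, since their processed intensities before scaling overlapped. For ATP5PO these were 72530 to 88410 in younger and 65230 to 123900 in older controls, and for NDUFA12 28560 to 45390 and 34420 to 48100.

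**Figure D3:**
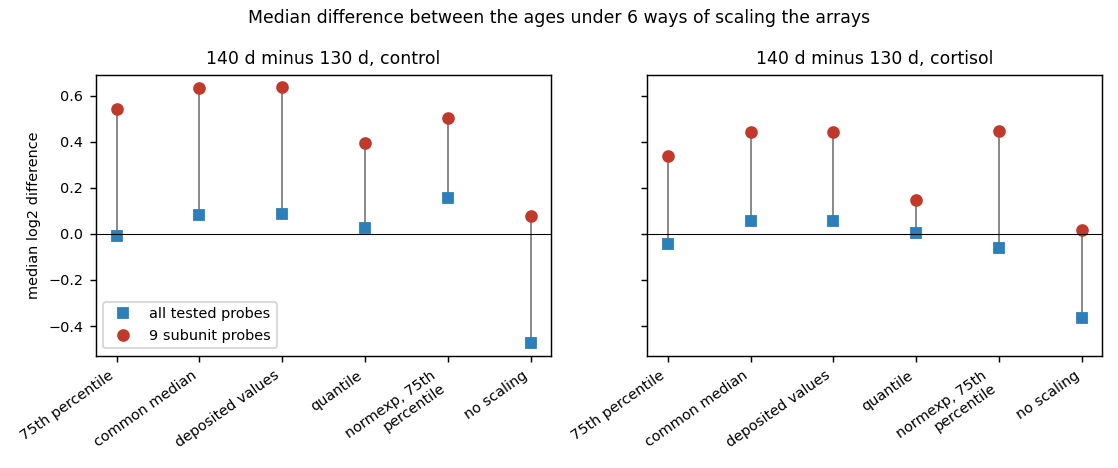
Median log2 difference between the ages (y axis) of the 9 subunit probes (circles) and of all tested probes (squares) under 6 ways of scaling the arrays (x axis), in control and cortisol fetuses. The members' median lies above that of all probes in each, and without scaling both are lower, at 0.08 and -0.47 in controls. The gap is fixed in advance wherever the scaling only shifts each array as a whole.

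A ratio of a pair of probes on the same array does not depend on the array's scale, and was used to compare members, after the differences above had been seen. In all, 28 such ratios were tested between the ages with exact permutation tests (2-sided) and adjusted together by Benjamini-Hochberg. The ratio of ATP5MC1 to ATP5MC2, the genes for the same ring subunit, was higher at 140 d in each of the 4 tests. With the coding-end probe the log2 ratio was 0.22 ± 0.11 (SD, n = 6) in younger and 0.74 ± 0.26 (SD, n = 8) in older controls, with ranges of 0.03 to 0.33 and 0.49 to 1.31 that did not overlap (exact p = 0.000666, the smallest this design allows, adjusted p = 0.0163). In cortisol fetuses it was 0.26 ± 0.09 (SD, n = 6) and 0.63 ± 0.14 (SD, n = 7), again without overlap (exact p = 0.00117, adjusted p = 0.0163). With the probe A_70_P030366 the ratio rose by 0.46 in controls (exact p = 0.0113, adjusted p = 0.0442) and by 0.64 with cortisol (exact p = 0.0035, adjusted p = 0.0245). That control ratio was between -0.05 and 0.66 on single slides and 0.27 after quantile normalization, where the coding-end ratio was 0.37. Without replicate 4 the cortisol ratios rose by 0.41 and 0.72 (exact p = 0.00216 for each, the smallest that design allows). These pairs were set up because the mRNA probes of ATP5MC1 had passed and ATP5MC2 had not, so the ratios give the size of that difference on a common scale and no independent evidence of it. The tag probes of ATP5MC1 were not set against ATP5MC2. The level of a ratio carries no meaning, since the probes differ.

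**Figure D4:**
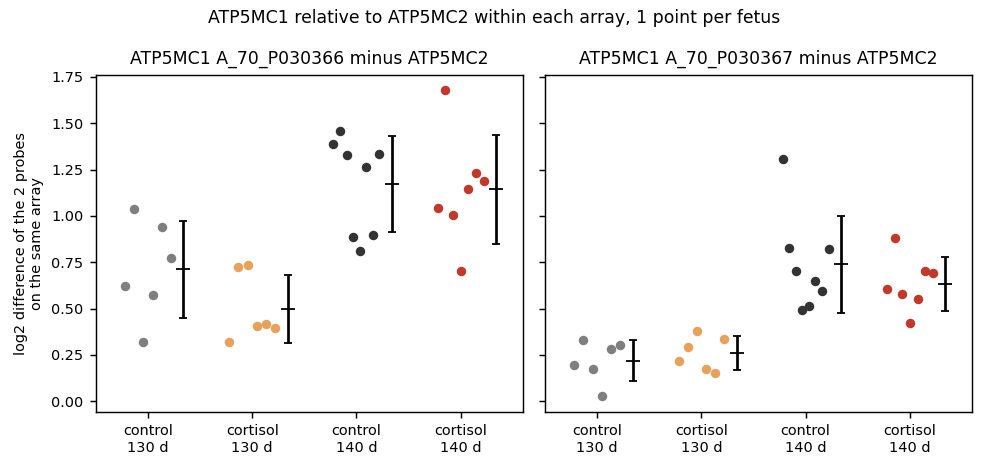
Log2 level of each ATP5MC1 mRNA probe minus that of the ATP5MC2 probe on the same array (y axis) by group (x axis), 1 point per fetus, with mean and SD. With the coding-end probe A_70_P030367 the points at 140 d lie above those at 130 d in both arms, 0.49 to 1.31 against 0.03 to 0.33 in controls.

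In cortisol fetuses, 3 of the 6 genes were higher at 140 d than at 130 d and none was lower. These include ATP5PD, counted as above under the array's name for its probe. By probe, 4 of 9 passed upward, beside 4.94% of all tested probes, and 0 of 9 had groups that did not overlap, beside 1.54% of all tested probes. A shift to a common median gave 5 of 9, with ATP5PO (0.44, adjusted p = 0.0426) added, and moved the share of higher calls among all called probes from 36.7% to 63.7%. Background correction and quantile normalization lowered the count. The share of all tested probes called in either direction was 13.5% in the main fit and 14.3% with the common median. It was 2.65% after normexp correction and 12.3% after quantile normalization. Of the 4 probes, A_70_P030366 of ATP5MC1 (0.46, adjusted p = 0.0345) and ATP5PD (0.36, adjusted p = 0.0386) passed after quantile normalization, and only A_70_P030366 after normexp correction (0.69, adjusted p = 0.0343). Without replicate 4 of the older group, 5 of 9 passed, beside 8.51% of all probes. Then 4 of 9 had groups that did not overlap, beside 4.95% of all probes. The median difference of the 9 probes was 0.34 and that of all tested probes -0.04.

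NDUFA12 ran from 4.90 to 5.07 in the younger cortisol fetuses (median 5.01) and from 4.42 to 5.84 in the older ones (median 5.64). The lowest value was replicate 4, and the next was 5.54, above all younger fetuses. The difference was 0.50 (SE 0.16, 95% interval 0.18 to 0.81, adjusted p = 0.0341), and 0.67 (adjusted p = 8.58e-05) without that array. The call passed in 18 of the 27 fits that each left out 1 array. Those without a control array left the difference itself unchanged. Of the cortisol arrays, the call held only without replicate 3 or 5 of the younger group or replicate 4 or 5 of the older one. It failed, with adjusted p between 0.0533 and 0.0772, without replicate 1, 2, 4 or 6 of the younger cortisol group or replicate 1, 2, 3, 6 or 7 of the older one. ATP5MC1 passed with both mRNA probes. A_70_P030366 ran from 7.35 to 7.72 (median 7.63) and from 7.57 to 8.64 (median 8.39), a difference of 0.73 (SE 0.15, adjusted p = 0.00255), and A_70_P030367 from 7.25 to 7.41 (median 7.36) and from 7.28 to 8.00 (median 7.89), a difference of 0.46 (SE 0.12, adjusted p = 0.00945). For both, replicate 4 alone lay among the younger values, and without it the differences were 0.85 (adjusted p = 0.00015) and 0.55 (adjusted p = 0.000768). With all 4 probes of ATP5MC1 averaged, tag probes included, the gene's difference was 0.10 (adjusted p = 0.769), and in controls it was 0.49 (adjusted p = 0.0492).

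ATP5PD ran from 0.65 to 1.06 in the younger cortisol fetuses (median 0.99) and from 1.03 to 1.65 in the older ones (median 1.46), with a difference of 0.40 (SE 0.12, adjusted p = 0.0243), or 0.45 (adjusted p = 0.00861) without replicate 4. It lost the call without cortisol 130 d replicate 6 (0.34, adjusted p = 0.0703) or cortisol 140 d replicate 3 (0.35, adjusted p = 0.0587), which leaves 2 member probes called in each case. ATP5PO ran from 6.07 to 6.30 (median 6.24) and from 5.80 to 6.97 (median 6.64). Its difference of 0.34 (SE 0.14, adjusted p = 0.0922) did not pass, and was 0.46 (adjusted p = 0.0036) without replicate 4. ATP5MC2 (0.09, SE 0.10, adjusted p = 0.619) and COX5A (-0.14, SE 0.18, adjusted p = 0.658) did not pass, and neither did the ATP5MC1 tag probes, at -0.29 and -0.50. On the 3 slides with both ages, 4 of the 9 probes were higher at 140 d on each. The share of all tested probes that were so was not computed, and slide 4 held 1 older cortisol array. NDUFA12 ranged there from -0.01, on the slide with replicate 4, to 0.76.

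Maternal cortisol was not followed by a detected change of any member at either age. At 130 d, 0 of 9 probes passed between cortisol and control, beside 0% of all tested probes by limma. An unadjusted p under 0.05 was reached by 0 of the 9 and by 455 of the 12778 probes. At 140 d, 0 of 9 passed, beside 0% of all tested probes, and an unadjusted p under 0.05 was reached by 2 of the 9 and by 727 of all. The cortisol and control groups overlapped for all 9 probes at both ages.

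The intervals show what size of change these arrays leave possible. At 130 d the difference of cortisol minus control for NDUFA12 was -0.01, with a 95% interval of -0.34 to 0.33, and that of ATP5PD was 0.04, from -0.22 to 0.29. COX5A had the largest positive difference among the brightest probes, 0.35 (95% interval -0.04 to 0.73, adjusted p = 1), with all 6 cortisol fetuses above the mean of the controls. At 140 d all 9 differences were negative, with a median of -0.24 beside -0.04 for all tested probes. Without replicate 4 of the cortisol group these medians were -0.10 and -0.03. The 2 with an unadjusted p under 0.05 were ATP5PD at -0.27 (95% interval -0.50 to -0.05, adjusted p = 0.808) and the coding-end probe of ATP5MC1 at -0.24 (95% interval -0.46 to -0.02, adjusted p = 0.808). No older cortisol fetus reached the mean of the older controls for that ATP5MC1 probe, and 1 of 7 did so for ATP5PD. Without replicate 4 these differences were -0.22 and -0.15. NDUFA12 went from -0.20 to -0.02 and ATP5PO from -0.15 to -0.03 without it. On the 4 slides that held both older groups, ATP5PD, COX5A and the coding-end probe of ATP5MC1 were lower with cortisol on each. The share of all tested probes lower on each was not computed. Slide 4 held 1 array of each older group, and slide 5 held 1 older cortisol array.

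The change of the cortisol difference between the ages was tested as an interaction. Of the 9 probes 0 passed, beside 0% of all tested probes, with an unadjusted p under 0.05 for 1 of the 9 and for 743 of all. That probe was COX5A, at -0.59 (SE 0.25, 95% interval -1.10 to -0.07, adjusted p = 0.748). Its cortisol difference was positive at 130 d and -0.24 at 140 d. That 5 probes passed between the ages in controls and 4 with cortisol is therefore not shown to be a difference between the arms. Both cortisol comparisons and both age comparisons share groups, so their values are not independent.

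The members varied together within groups, apart from COX5A and the ATP5MC1 tag probes, and several pairs did so less without replicate 4. After subtraction of group means, NDUFA12 and ATP5PO correlated at r = 0.84 over the 27 arrays, and the coding-end probe of ATP5MC1 with ATP5PO at 0.84. Without replicate 4 of the older cortisol group these were 0.64 and 0.75. ATP5PD and ATP5PO correlated at 0.70, and at 0.69 without it. The ATP5MC1 probe A_70_P030366 correlated with ATP5PO at 0.68, with ATP5PD at 0.40 and with ATP5MC2 at 0.40. Without that array these were 0.44, 0.26 and 0.20. Over the 15 pairs of the brightest probe of each gene, r ran from -0.22 to 0.84 with a median of 0.41, or 0.31 without that array. COX5A correlated with the brightest probes of the other genes at -0.22 to 0.27. The points share each array's scale and RNA, so these values are a description.

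**Figure D5:**
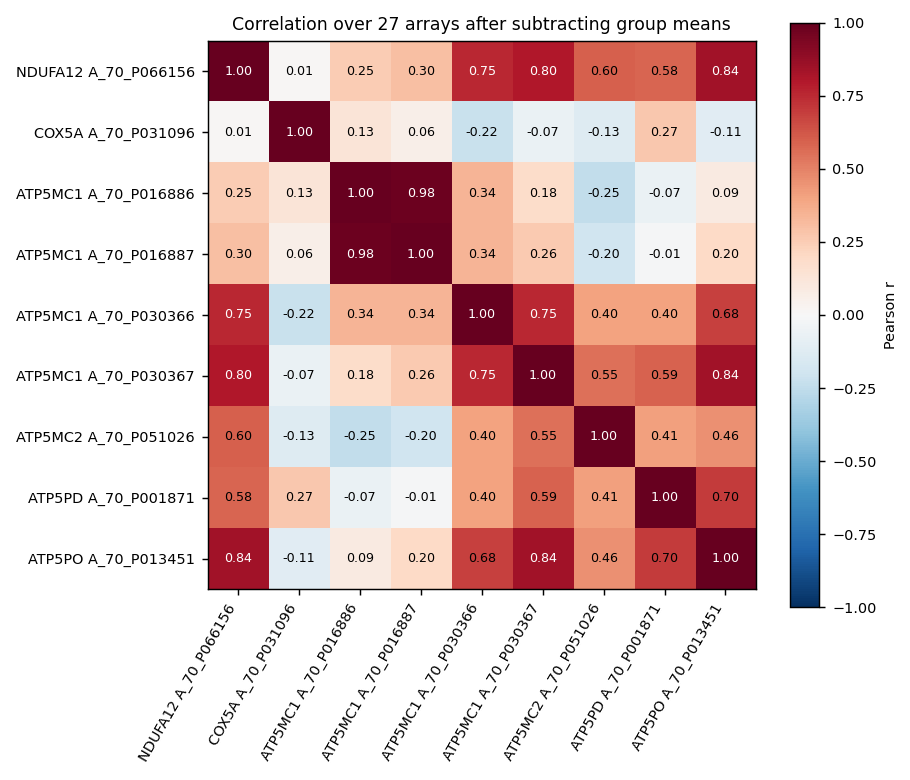
Pearson correlation between the 9 probes over 27 arrays after subtracting each group's mean, with the value in each cell and colour from -1 to 1. NDUFA12, the ATP5MC1 mRNA probes, ATP5PD and ATP5PO form a block of 0.40 to 0.84; COX5A and the tag probes A_70_P016886 and A_70_P016887 stand outside it.

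The genes whose levels ran most like the members were found from the mean of the members' standardised levels, over 789 other named genes. The highest were MAST (r = 0.96; a name that a family of kinase genes shares), ENDOG (r = 0.93; a nuclease of mitochondria), GATD3 (r = 0.92; a mitochondrial protein listed under its older name), SLC25A6 (r = 0.87; an ADP/ATP carrier of the inner membrane) and TPM1 (r = 0.87 over 26 arrays; tropomyosin of the contractile filaments). All 5 were higher at 140 d in both arms, SLC25A6 by 0.93 in controls (adjusted p = 0.000171) and 0.85 with cortisol (adjusted p = 0.000531). The ranking spans both ages and the members' mean differs between them, so genes picked this way tend to differ with age too. Their age differences are therefore no separate finding. After subtraction of group means, r was 0.87 for MAST, 0.77 for ENDOG, 0.79 for GATD3, 0.65 for SLC25A6 and 0.59 for TPM1. The lowest were ACTG1 (r = -0.83; cytoplasmic actin), IRF3 (r = -0.81; a regulator of interferon genes) and IL10 (r = -0.80; a cytokine). All 3 were lower at 140 d in controls, and with cortisol they did not pass. The same limit of the ranking holds for them. Within groups r was -0.65 for ACTG1, -0.64 for IRF3 and -0.54 for IL10.

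The other genes of the pathway are thinly covered under the names used here, and all that were measured are named. Of 180 further genes in 10 lists (other subunits of the complexes, assembly factors, the tricarboxylic acid cycle, import and pores, regulators of mitochondrial biogenesis), 8 had a tested probe. In controls 1 of the 8 passed between the ages, upward, beside 9.77% of all tested probes, and 0 did in the other comparisons. It was NDUFA2, another accessory subunit of complex I, with 0.46 (SE 0.14, adjusted p = 0.0216). It did not pass after quantile normalization (0.29, adjusted p = 0.0944), after normexp correction (0.45, adjusted p = 0.114), with slide as a fixed block (0.42, adjusted p = 0.0527) or without control 130 d replicate 1 or 3 (adjusted p = 0.0555 and 0.0568), and with no scaling it was -0.01. With cortisol NDUFA2 differed by 0.28 between the ages (adjusted p = 0.203), and passed without replicate 4 of the older group (0.39, adjusted p = 0.0236). SDHD of complex II differed by 0.19, the heme A synthase COX15 by 0.43 and the outer membrane pore VDAC1 by 0.36. PPARGC1A, a coactivator that drives mitochondrial biogenesis, differed by 0.16 in controls (95% interval -0.19 to 0.51, adjusted p = 0.555), and NRF1, GABPA and YY1, transcription factors of nuclear mitochondrial genes, did not pass either.

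The septum is a mixed tissue, and in such samples fewer cells of a type and less RNA per cell cannot be told apart. Of the 25 cardiomyocyte markers 2 were measured under these names, myoglobin (MB) and TPM1. The log2 of their levels summed on the linear scale, the measure used for all markers below, weighs the brightest marker most. It was 8.80 to 9.11 in younger and 9.18 to 9.77 in older controls, which did not overlap. With cortisol it was 8.90 to 9.11 (5 arrays) and 8.82 to 9.66. MB was higher by 0.48 in older controls (adjusted p = 0.0282) and TPM1 by 0.67 (adjusted p = 0.000119). In older controls the fibroblast markers (5 of 9 measured) summed to 6.33 to 7.52 against 7.15 to 7.79, and the erythroid markers (2 of 7) to 1.59 to 4.81 against 4.07 to 5.82. The immune cell markers (5 of 10) summed to -0.74 to -0.09 there against -0.09 to 1.49. In the same order the adipocyte markers (6 of 8, on 7 and 5 arrays) were 2.32 to 3.13 and 1.59 to 2.53, the endothelial markers (4 of 9) 1.34 to 2.47 and 1.48 to 2.29, and the smooth muscle marker CNN1 (1 of 6) 2.62 to 6.63 and 2.80 to 4.66. Replicate 4 of the older cortisol group had the highest fibroblast sum, 8.40, and the lowest cardiomyocyte sum, 8.82, of its group. Its endothelial sum of 2.77 lay above the 1.98 to 2.21 of the other arrays, and its immune sum of 1.23 above their -0.50 to 0.01. The part of these cell types in the members' change was not tested.

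Set against TPM1 on the same array, no ratio of a member that had risen passed between the ages. TPM1 is also among the genes ranked most like the members, so these ratios are not independent of that ranking. The log2 ratio to TPM1 changed by 0.01 for NDUFA12 (exact p = 0.886), 0.02 for ATP5MC1 (exact p = 0.888), 0.04 for ATP5PD (exact p = 0.714) and -0.13 for ATP5PO (exact p = 0.136) in controls. With cortisol it changed by 0.31 for ATP5MC1 (exact p = 0.0429, adjusted p = 0.101), or 0.39 without replicate 4 (exact p = 0.013), and by 0.07 for NDUFA12 (exact p = 0.75), or 0.20 without it (exact p = 0.0173). The values without replicate 4 were not adjusted. ATP5PD changed by -0.05 (exact p = 0.667) with cortisol. ATP5MC2 fell against TPM1 by 0.44 in controls (exact p = 0.00266, adjusted p = 0.0245) and by 0.38 with cortisol (exact p = 0.00758, adjusted p = 0.0354). After quantile normalization these were -0.21 and -0.20. COX5A fell against it by 0.61 with cortisol (exact p = 0.0126, adjusted p = 0.0442), and the difference was -0.09 after normexp background correction. Against MB, 1 of 12 ratios passed: ATP5MC1 rose by 0.54 with cortisol (exact p = 0.00699, adjusted p = 0.0354). In controls that ratio differed by 0.21 (exact p = 0.18) and did not pass. The NDUFA12 ratio to MB differed by 0.21 in controls and did not pass after adjustment (exact p = 0.0253, adjusted p = 0.0709). Those of ATP5PD and ATP5PO to MB differed there by 0.23 (exact p = 0.0686) and 0.06 (exact p = 0.529), and did not pass. After quantile normalization the control ratios to TPM1 were 0.21 for NDUFA12 and 0.40 for ATP5PD.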

How the data were processed

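RNA of 27 fetal heart septa was hybridised to 1-colour Agilent arrays. The deposited scanner files hold background-subtracted, detrended intensity values and flags for outlying, saturated and well-above-background spots, per the file headers (the submitters' processing notes name Agilent Feature Extraction 10.1.1.1). The authors' deposited table holds log2 values that differ from the log2 of processed intensity by a shift fixed for each array (residual SD at most 2e-06, column medians 0.09 to 0.12). What sets that constant is not given in the sources used here.

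Here, outlying spots were left out, spots of a probe averaged, and log2 intensity centred on each array's 75th percentile. A probe entered the test where 6 or more arrays had it well above background, with limma 3.58.1 in R 4.3.3 (lmFit, eBayes). Probes were named from the files and from accessions in the supplied RefSeq gene table of sheep; 1210 tested probes (9.47%) had a name, for 795 genes. A gene's own value is its brightest tested probe. Named genes are all member probes, pathway list genes past the threshold, and the 5 most and 3 least alike. The twin pair was treated as independent, and with no statement on separate animals beyond the labels, p measures the spread between these arrays, whose number limits the precision. The fit was tested on simulated data. All arrays were scanned on 1 day. Alternatives were other scaling, background correction and filters, slide and replicate number as blocks, each array left out, and probe means; fits without scaling, probe ratios and the results without replicate 4 of the older cortisol group were added after the data were seen. The members and gene lists were chosen with earlier results of these data known.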

Additional observations from a re-analysis of the deposited data

Results flagged for a closer look

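In 6 of the 36 combinations of probe and group, the highest or lowest array lay far from the rest of its group by Dixon's test; chance gives about 1 in 20 such flags. Of these, 4 were replicate 4 of the older cortisol group, which was the lowest array for NDUFA12 (4.42), both ATP5MC1 mRNA probes (7.57 for A_70_P030366 and 7.28 for A_70_P030367) and ATP5PO (5.80). The 2 others were the highest value of the coding-end ATP5MC1 probe in older controls, 8.54 in replicate 1, and the lowest value of ATP5PD in younger cortisol fetuses, 0.65 in replicate 6.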

How the results depend on the processing

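Between the ages in controls the 5 member probes past the threshold passed in all 27 fits that left out 1 array, and the count ran from 5 to 6 of 9. Fits without a cortisol array leave the control difference unchanged and alter only its spread. Of all tested probes 19.1% were called in either direction in the main fit. That share was 18.8% after quantile normalization, 4.19% after normexp correction and 56.9% with no scaling. The count was 4 to 7 under other scaling, background correction, filters, slide blocks or probe means, and 6 with the replicate number as a replicate block. It was 0 with no scaling between arrays and within each of slides 2, 3 and 4. With cortisol the count of 4 became 5 with a common median or the deposited table, stayed 4 with slide blocks, other filters or outliers kept, and became 2 after quantile normalization, 1 after normexp correction, 2 with only the compared groups in the fit, 2 of 6 genes with probe means, and 0 with no scaling and within slides 2, 3 and 4. Leaving out 1 array gave 2 to 5, and the replicate block gave 4. In both cortisol comparisons and in the interaction the count was 0 under every alternative run, the replicate block included. NDUFA12 with cortisol was -0.01 within slide 3, and NDUFA2 in controls was -0.01 with no scaling; the cause was not tested. Among 1502 values that passed under neither setting, 61 changed sign. Many of them come from fits without an array outside the compared groups, whose difference cannot change. Within single slides 11 of 27 changed sign for cortisol minus control at 130 d and 8 of 36 at 140 d. Between the ages 2 of 12 did so there in controls and 4 of 15 with cortisol, and 2 of 27 for the interaction. Equal replicate numbers were not taken to pair the arrays: deviations from group means correlated between -0.17 and 0.36. Between cortisol and control, replicates 1, 2 and 5 at 130 d correlated more with their own number than with any other, and 3, 4 and 6 did not. Replicate 5 there had 0.25 against at most 0.08. At 140 d replicates 2 (0.36 against at most 0.11) and 4 did so, and 1, 3, 5, 6 and 7 did not. Scan date as a block was not run, since all arrays share 1 day. The least precise member probes were the ATP5MC1 tag probes, with SE 0.29 and 0.30 between the ages in controls. COX5A, the dimmest, had SE 0.17.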
